A study of Homo sapiens with 6 samples.

Results

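The transcripts described here are those of 54 genes of the G2 phase and mitosis, found by symbol in the deposited table of SCC4, which holds 16536 genes. All 54 were present once, and all 54 passed the filter on low values, so each was tested. SCC4 is an established line of human tongue squamous carcinoma cells. Both groups are untreated SCC4 cells in 3 libraries each. Parental cells grew attached to the dish, and sphere cells were obtained from them in suspension culture, a selection that the submitters use to enrich cancer stem cells. The question is how transcripts of cell division differ between the attached and the suspended form of the line. Values are TPM-like units, normalised by the authors and meant to be per transcript length, and their read depth is unknown. Whether the replicates came from separate cultures is not stated, so p-values measure only how far these libraries differ, which may be technical.

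Cells enter mitosis when the kinase CDK1, bound to a B-type cyclin, becomes active. Aurora and Polo-like kinases then build the spindle, kinetochores join chromosomes to microtubules, and the anaphase-promoting complex marks cyclins and securin for destruction so that chromosomes separate. Most of these genes are transcribed in G2 and mitosis and shut off in G1, through promoter elements named the cell cycle genes homology region (CHR) and the CCAAT box, which bind the DREAM and MuvB complexes with B-MYB and FOXM1, and the factor NF-Y. Their summed RNA in a bulk sample therefore follows how many cells divide as well as how much RNA each dividing cell holds, and these cannot be told apart here.

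The promoters of 6 genes are shown first, because the CHR and the CCAAT box are elements that many of these genes hold and the 6 include genes that fell, rose and did neither in sphere cells. They were taken from 18 genes with a single listed start and both kinds of letters in the 150 bases before it. They are the 3 largest falls among those that passed the test, the smallest difference and the 2 largest rises. The sequences are those of RefSeq on GRCh38.p14, read 5′ to 3′ up to the base before the start, with CHR letters (TTTGAA or TTCGAA, on either strand) and CCAAT letters (on either strand) in capitals. Capitals run together where both overlap or abut. CDC20 lies at chr1:43358831-43358980, plus strand, CENPA at chr2:26785906-26786055, plus strand and CDCA8 at chr1:37692366-37692515, plus strand. MKI67 lies at chr10:128126424-128126573, minus strand, NCAPD2 at chr12:6493952-6494101, plus strand and HMMR at chr5:163460482-163460631, plus strand.
CDC20: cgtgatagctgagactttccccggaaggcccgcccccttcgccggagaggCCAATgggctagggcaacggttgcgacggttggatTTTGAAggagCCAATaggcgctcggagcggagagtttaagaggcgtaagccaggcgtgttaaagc
CENPA: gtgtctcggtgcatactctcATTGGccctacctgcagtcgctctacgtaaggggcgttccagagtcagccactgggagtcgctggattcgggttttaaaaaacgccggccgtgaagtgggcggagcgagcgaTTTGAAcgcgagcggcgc
CDCA8: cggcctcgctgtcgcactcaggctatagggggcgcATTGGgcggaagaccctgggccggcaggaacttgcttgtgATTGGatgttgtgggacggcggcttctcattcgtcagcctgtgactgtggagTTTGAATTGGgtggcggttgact
MKI67: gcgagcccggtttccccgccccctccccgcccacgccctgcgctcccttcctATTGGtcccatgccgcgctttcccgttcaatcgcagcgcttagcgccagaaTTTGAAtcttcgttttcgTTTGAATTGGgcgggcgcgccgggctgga
NCAPD2: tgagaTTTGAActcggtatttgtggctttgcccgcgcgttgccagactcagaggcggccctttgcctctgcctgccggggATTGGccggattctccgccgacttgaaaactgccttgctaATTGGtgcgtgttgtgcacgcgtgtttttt
HMMR: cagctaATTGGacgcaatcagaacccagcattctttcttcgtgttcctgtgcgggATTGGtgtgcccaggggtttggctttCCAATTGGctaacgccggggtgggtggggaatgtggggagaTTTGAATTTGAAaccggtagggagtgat

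Promoters were listed for 46 of the 54 genes, with 57 starts. In the 250 bases before at least 1 listed start, CHR letters were found in 27 of the 46 genes (58.7%), against 1405 of 10504 tested genes with a listed promoter (13.4%). CCAAT letters were found in 33 of the 46 (71.7%), against 41.5% of the tested genes, and both kinds in 23 (50.0%) against 5.36%. CCAAT letters were also frequent in other lists, in 29 of 42 other mitosis genes (69.0%) and 24 of 32 S-phase genes (75.0%). The matches of the CHR letters lay close to the start. Of 38 matches in the 57 promoters, 18 began between 30 and 11 bases before it (47.4%), a window chosen after the positions were seen, against 7.01% of 1713 matches in the promoters of tested genes. In a list of 50 other mitosis genes, 42 had a promoter and 17 of these held CHR letters (40.5%), while S-phase genes held them in 5 of 32 (15.6%) and in 0 of 32 within 50 bases of the start. Genes with and without the letters had similar medians. Of the 27 genes with CHR letters 16 fell and 2 rose, with a median log2 fold change of -0.29, and of the 19 without them 7 fell and 1 rose, with a median of -0.27. The promoters printed above carry CHR letters alike in CDC20, which fell, in MKI67, which did not pass the test, and in HMMR, which rose.

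**Figure D1:**
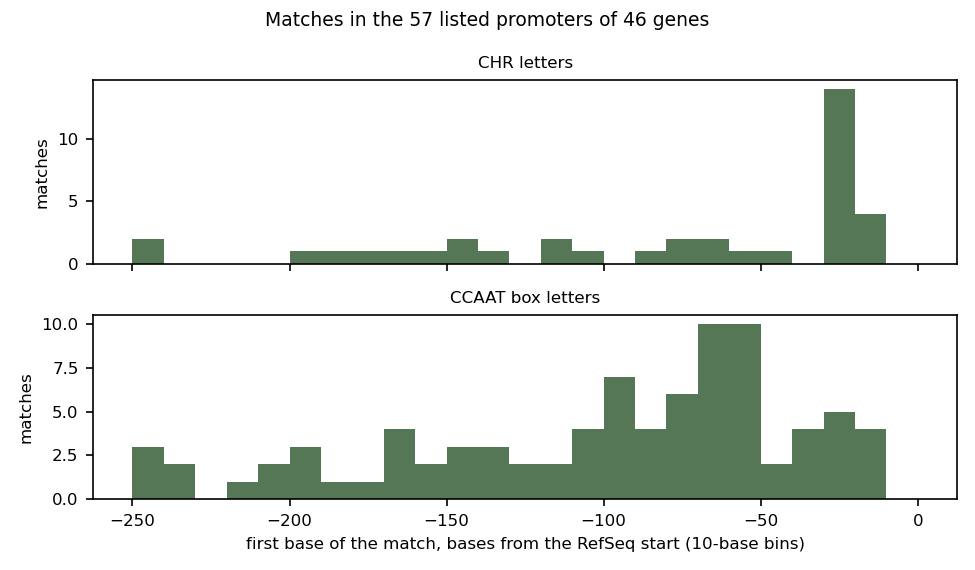
Number of matches of the CHR letters (upper) and the CCAAT letters (lower) by the distance of their first base from the RefSeq start, in bases, in bins of 10 bases over the 57 listed promoters of 46 genes. CHR matches gather just before the start, where 18 of 38 begin between 30 and 11 bases before it.

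In sphere cells 27 of the 54 genes fell and 3 rose, and 24 did not pass the test. Across all 15034 tested genes 22.9% fell and 25.8% rose, 48.7% being called either way, while 50% of the division genes fell. The largest falls were in NEK2, AURKA, CDC20, GAS2L3 and CDC25C, each to between 45.9% and 52.7% of the parental mean. The median log2 fold change of the 54 genes was -0.27, against 0.04 for all tested genes. Values were analysed as log2(value + 1) with limma over the whole table, and a gene was called at a Benjamini-Hochberg adjusted p below 0.05. For 33 of the 54 genes every sphere library lay below every parental library, against 27.5% of all tested genes, and for 6 every sphere library lay above, against 37.6%. The 54 genes together made up 0.647%, 0.579% and 0.647% of the total in parental replicates 1 to 3, and 0.45%, 0.402% and 0.457% in sphere replicates 1 to 3.

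**Figure D2:**
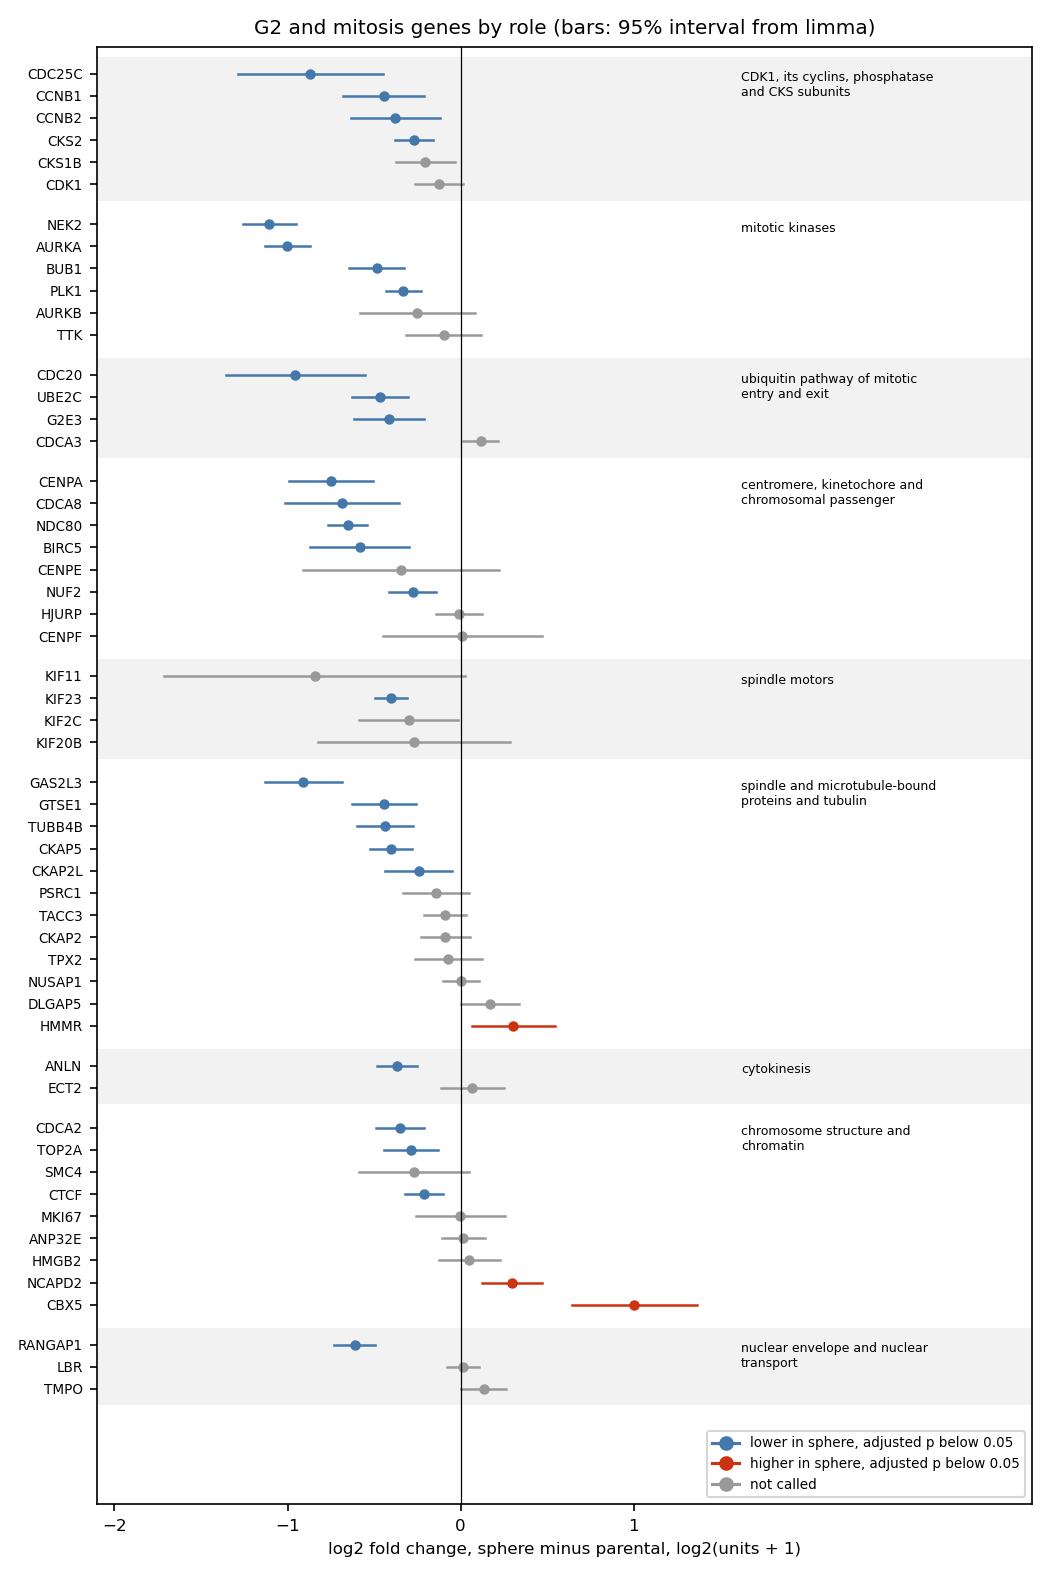
Log2 fold change of each of the 54 genes, sphere minus parental on the log2(units + 1) scale, with the 95% interval from limma, grouped by role. Most points lie left of 0, from -1.10 for NEK2, and CBX5 stands alone at 1.0.

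Several features of the libraries moved with the groups or replicates. The column totals ran from 885258 to 1134102 units, set by the authors' scaling, and the counts of rising genes depended on it, as given in the closing part on processing. All 13 squamous epithelial markers had at least 1 unit in all 6 libraries. Their sum was 9142 to 9872 units in parental and 29127 to 30780 units in sphere libraries, with 8 of the 13 rising and 3 falling. Of 8 fibroblast markers 3 had a row, and 1 of these reached 1 unit in all 6 libraries. The 3 summed to 7.53 to 9.77 units in parental and 25.2 to 30.2 units in sphere libraries, with 1 rising and 1 falling. The share of mitochondrially encoded genes was 15.4% to 16.7% and 18.6% to 20.3%. The part of these shifts in the results was not tested, beyond the scaling to equal totals outside mitochondrially encoded genes. Of 18 erythroid markers 9 had a row, and none reached 1 unit in all 6 libraries. Erythroid markers summed to 1910 and 1308 units in parental replicates 2 and 3 and to 1225 units in sphere replicate 2, and to at most 1.24 units in the other 3 libraries. Leaving these 3 libraries out sets parental replicate 1 alone against sphere replicates 1 and 3, and the lone library is then assumed to vary like the sphere libraries. In that fit 21 of the 54 genes fell and 2 rose, and over all tested genes 17.0% fell, against 22.9% with all 6 libraries, so a call lost in it alone says little about a gene. Any further part of these transcripts in the results was not tested. Replicates also differed with transcript length, which was looked at after the values were seen. Over the 54 genes, Spearman's rho between transcript length and the deviation from the group mean was 0.53 and -0.39 in parental replicates 2 and 3, and -0.60, -0.33 and 0.76 in sphere replicates 1 to 3. Over 9851 genes of at least 5 units the same values were 0.27, -0.21, -0.21, -0.22 and 0.49. Between the groups, rho with the log2 fold change was 0.30 over the 54 genes and -0.07 over the 9851, the longer transcripts of the 54 tending to the higher values. These are descriptions over genes that share libraries. With the length trend removed from each library, 26 of the 54 genes fell and 4 rose.

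The B-type cyclins and CDC25C, a phosphatase that activates CDK1, fell, and CDK1 itself did not pass the test. CDC25C (ENSG00000158402) is a phosphatase that removes the inhibitory phosphates from CDK1. It was at 27.4, 26.2 and 38.9 units in parental and 16.5, 18.1 and 14.1 units in sphere cells. Values are listed for replicates 1 to 3 in order, here and below. The groups did not overlap, with a log2 fold change of -0.87 (95% interval -1.29 to -0.45, limma adjusted p = 0.00725). CCNB1 (ENSG00000134057), cyclin B1, had 285, 258 and 330.0 units in parental cells and 222, 208 and 208 units in sphere cells. It was lower in every sphere library, with a log2 fold change of -0.45 (limma adjusted p = 0.0101). CCNB2, cyclin B2, fell by 0.38 on the log2 scale (limma adjusted p = 0.0272), a call that ended without any 1 of the sphere libraries, with adjusted p up to 0.0845 over all alternatives. Of the small CKS subunits that help CDK1 bind its targets, CKS2 fell from 447 ± 12.3 to 371 ± 10.3 units (SD, n = 3 each, limma adjusted p = 0.00376), and its call ended with the length trend removed (0.0568). CKS1B, at 320 ± 24.3 and 278 ± 11.9 units, was not called, though its groups did not overlap. It was called without parental replicate 2, with array weights and among genes of at least 5 units on average. CDK1 (ENSG00000170312) had 165, 166 and 183 units in parental and 161, 151 and 159 units in sphere cells, and did not pass the test. All sphere libraries lay below all parental ones, and the 95% interval of its log2 fold change ran from -0.26 to 0.01. In all, 4 of the 6 genes of this set fell (66.7%, against 22.9% of all tested genes).

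Among the mitotic kinases NEK2 and AURKA were halved, BUB1 and PLK1 moderately lower, and AURKB and TTK not called. Differences between the kinases were not tested. NEK2 (ENSG00000117650), which separates the centrosomes, was at 86.8, 83.7 and 94.6 units in parental and 41.3, 42.0 and 38.3 units in sphere cells. This was the largest fall of the 54 genes, 2.18-fold by group means, with a log2 fold change of -1.10 (95% interval -1.26 to -0.95, limma adjusted p = 6.49e-05). AURKA (ENSG00000087586), Aurora kinase A of the centrosome and spindle poles, had 219.8, 213 and 239 units in parental and 113, 112 and 109 units in sphere cells. The sphere libraries lay within 4 units of each other and far below the parental ones, with a log2 fold change of -1.0 (limma adjusted p = 5.48e-05). BUB1, a kinase of the spindle checkpoint, fell from 50.7 ± 3.65 to 35.9 ± 1.6 units (limma adjusted p = 0.00158). PLK1 (ENSG00000166851), Polo-like kinase 1, had 42.5, 42.4 and 43.5 units in parental and 33.1, 35.2 and 33.3 units in sphere cells. Its groups did not overlap, and its log2 fold change was -0.33 (limma adjusted p = 0.00115). AURKB (ENSG00000178999), Aurora kinase B of the chromosomal passenger complex, had 85.8, 82.7 and 116 units in parental and 80.6, 81.7 and 73.6 units in sphere cells. All its sphere libraries lay below all parental ones, with a log2 fold change of -0.25 (95% interval -0.58 to 0.08). AURKB did not pass the test (limma adjusted p = 0.179), and did so with the length trend removed (0.0294). TTK, the kinase that starts the spindle checkpoint and is also named MPS1, was at 29.3 ± 0.956 and 27.4 ± 3.16 units, with overlapping groups.

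**Figure D3:**
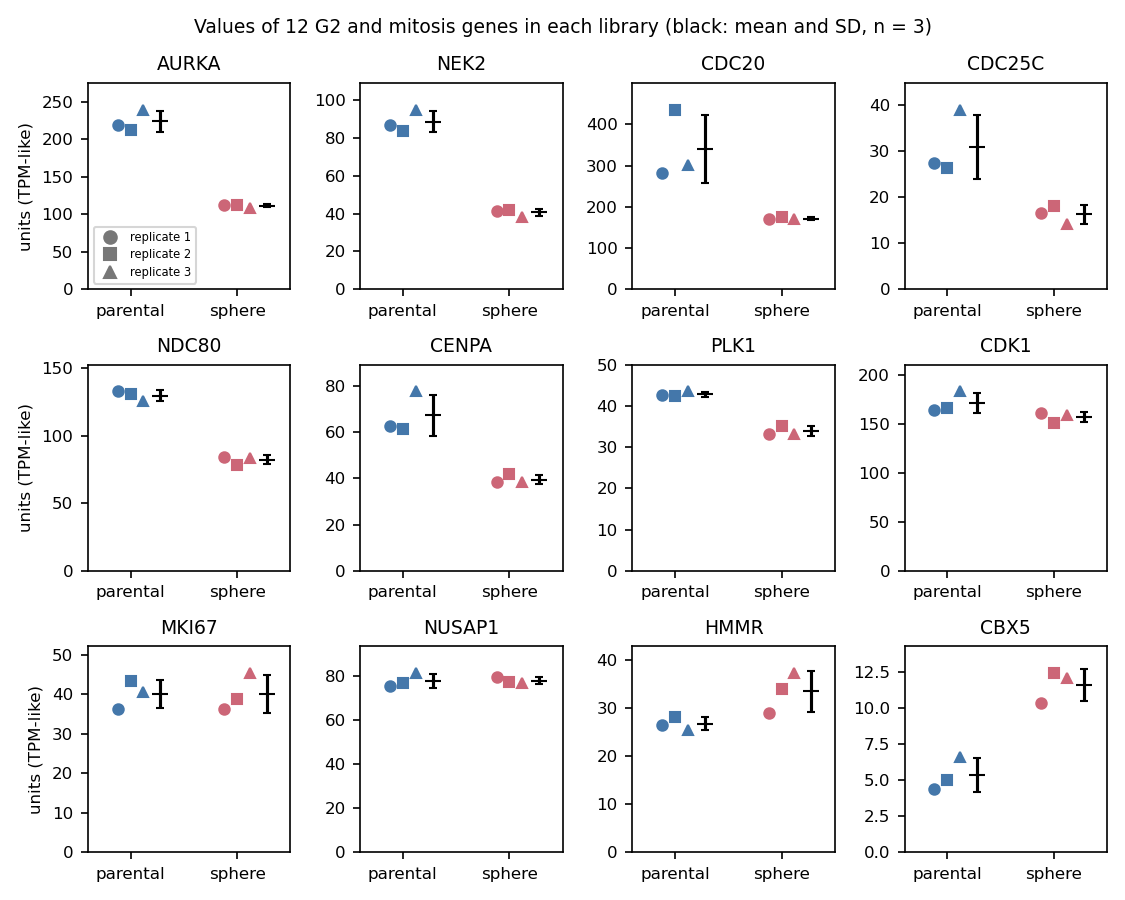
Units of 12 of the 54 genes in each library on axes that start at 0, with parental libraries in blue, sphere libraries in red, a symbol for each replicate, and the mean and SD of each group in black. AURKA and NEK2 are halved with no overlap, CDC20 has 1 high parental library, and MKI67 and NUSAP1 overlap fully.

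Genes of the ubiquitin pathway in entry into and exit from mitosis fell in 3 of 4 cases (75%, against 22.9% of all tested genes). CDC20 (ENSG00000117399), which activates the anaphase-promoting complex, was at 282, 435 and 302 units in parental and 171, 175 and 169 units in sphere cells. Parental replicate 2 stood high, the groups did not overlap, and the log2 fold change was -0.96 (limma adjusted p = 0.00421). Without parental replicate 2 the log2 fold change was -0.76 (limma adjusted p = 0.000393). UBE2C, the ubiquitin-conjugating enzyme that works with that complex, fell from 323 ± 22.0 to 233 ± 10.1 units (limma adjusted p = 0.00187). G2E3, a ubiquitin ligase, had a log2 fold change of -0.41, and its call held in 18 of 19 alternatives, all but the fit with 1 parental library (limma adjusted p = 0.169). CDCA3, linked to entry into mitosis through degradation of the kinase WEE1, stood at 21.3, 21.2 and 21.7 units in parental and 22.7, 23.8 and 23.2 units in sphere cells. Its groups did not overlap, in the other direction, and it did not pass the test (limma adjusted p = 0.0616).

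At the centromere and kinetochore 5 of 8 genes fell and 0 rose (62.5% and 0%, against 22.9% and 25.8% of all tested genes). CENPA (ENSG00000115163), the histone variant that marks the centromere, was at 62.8, 61.5 and 77.6 units in parental and 38.3, 41.9 and 38.3 units in sphere cells. The groups were well apart, with a log2 fold change of -0.75 (limma adjusted p = 0.00153). NDC80 (ENSG00000080986), the kinetochore subunit that holds microtubules, had 133, 131 and 126 units in parental and 84.7, 78.5 and 83.7 units in sphere cells. Its replicates were close to each other in both groups, with a log2 fold change of -0.65 (limma adjusted p = 0.00015). Of the chromosomal passenger complex, which corrects wrong attachments, BIRC5, also known as survivin, fell from 124 ± 16.3 to 82.3 ± 8.41 units (limma adjusted p = 0.0077). CDCA8, also known as borealin, fell from 66.5 ± 12.5 to 40.5 ± 1.53 units (limma adjusted p = 0.00713), by 0.69 on the log2 scale. NUF2, the partner of NDC80, had a log2 fold change of -0.28, a call that held in all alternatives but the fit with 1 parental library (limma adjusted p = 0.141). HJURP, the chaperone that loads CENPA, stood at 35.8 ± 2.19 and 35.6 ± 0.525 units. CENPF, a large protein of the outer kinetochore, had 23.9, 29.2 and 21.7 units in parental and 19.7, 25.01 and 31.2 units in sphere cells, and its spread within each group was wider than the difference between them. CENPE, the kinetochore motor, had the lowest mean of the 54 genes over all 6 libraries, at 5.99 ± 1.2 units in parental and 4.57 ± 1.46 units in sphere cells, with overlapping groups and no call.

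Of the 4 spindle motors, 1 fell (25%), a share near the 22.9% of all tested genes. KIF23, a motor of the central spindle, went from 73.4 ± 2.01 to 55.3 ± 1.05 units (limma adjusted p = 0.000387). KIF11 (ENSG00000138160), the motor that pushes spindle poles apart and is also named Eg5, was at 58.0, 142 and 59.3 units in parental and 41.4, 42.1 and 47.4 units in sphere cells. All sphere libraries lay below all parental ones, but parental replicate 2 was more than 2 times the other parental values and KIF11 did not pass the test (log2 fold change -0.84, limma adjusted p = 0.0975). Without parental replicate 2 it did, with a log2 fold change of -0.42 (limma adjusted p = 0.00732). KIF2C, which takes microtubules apart at the centromere, was at 80.3 ± 13.3 units in parental and 64.5 ± 2.76 units in sphere cells, and was not called (limma adjusted p = 0.0805). It was called with the authors' scaling undone and without parental replicate 3. KIF20B, a motor that acts in cytokinesis, was at 18.6, 24.2 and 15.04 units in parental and 12.4, 14.8 and 20.2 units in sphere cells, with overlapping groups.

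Among 12 spindle and microtubule-bound proteins and a tubulin, 5 fell and 1 rose (41.7% and 8.33%, against 22.9% and 25.8% of all tested genes). GAS2L3 (ENSG00000139354), which links actin and microtubules, had 16.9, 16.1 and 15.1 units in parental and 7.25, 7.97 and 9.07 units in sphere cells. It was halved with no overlap, at a log2 fold change of -0.91 (limma adjusted p = 0.00047). TUBB4B, a beta-tubulin and the most abundant of the 54 genes on this per-length scale, fell from 755 ± 53.4 to 556 ± 16.2 units (limma adjusted p = 0.00263). GTSE1, a microtubule plus-end protein, and CKAP5, a microtubule polymerase, fell by 0.44 and 0.40 on the log2 scale. CKAP2L, a spindle protein, fell by 0.24 (limma adjusted p = 0.0445), a call that ended in 10 of 19 alternatives. HMMR (ENSG00000072571), a spindle protein and hyaluronan receptor, was at 26.6, 28.2 and 25.5 units in parental and 28.98, 34.1 and 37.3 units in sphere cells. Its groups did not overlap by a margin smaller than 1 unit, its log2 fold change was 0.30 (limma adjusted p = 0.0452), and its call ended in 12 of 19 alternatives. TPX2, the activator of Aurora A on the spindle, was at 113, 106 and 129 units in parental and 109.6, 115 and 106 units in sphere cells. NUSAP1, which bundles microtubules around chromosomes, was at 77.8 ± 3.17 and 77.8 ± 1.55 units, with a 95% interval of -0.10 to 0.11 for its log2 fold change. DLGAP5, TACC3, CKAP2 and PSRC1, all spindle proteins, did not pass the test, with log2 fold changes of 0.17, -0.09, -0.09 and -0.14.

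Both cytokinesis genes are abundant, and 1 of them fell (50%, against 22.9% of all tested genes). ANLN, the contractile ring scaffold anillin, fell from 169 ± 4.81 to 130 ± 5.56 units (limma adjusted p = 0.00129). ECT2, which activates the contractile ring through RHOA, was at 80.6, 90.7 and 76.5 units in parental and 87.8, 81.9 and 89.7 units in sphere cells. Its groups overlapped and it did not pass the test.

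Genes of chromosome structure and chromatin went both ways, with 3 of 9 falling and 2 rising (33.3% and 22.2%, against 22.9% and 25.8% of all tested genes). In each fit without 1 library 3 of the 9 fell as well. With quantile normalization and with the replicate block 2 fell, and with equal totals outside mitochondrially encoded genes 1 fell. MKI67 (ENSG00000148773), whose protein Ki-67 coats mitotic chromosomes and serves as a clinical marker of proliferation, was at 36.2, 43.4 and 40.7 units in parental and 36.2, 38.7 and 45.4 units in sphere cells. The groups overlapped fully, and the log2 fold change of 0.00 had a 95% interval of -0.26 to 0.25. TOP2A (ENSG00000131747), topoisomerase II alpha, had 161, 169 and 155 units in parental and 132, 124 and 142 units in sphere cells. It fell by 0.29 on the log2 scale (limma adjusted p = 0.0124), and its call ended in 4 of 19 alternatives (adjusted p up to 0.0809, in the fit with 1 parental library). CDCA2, which brings a phosphatase to chromatin at mitotic exit, and CTCF, a chromatin loop factor, fell by 0.35 and 0.21 on the log2 scale. Both calls ended in the fit with 1 parental library (limma adjusted p = 0.0506 and 0.173), and that of CTCF also with equal totals outside mitochondrially encoded genes (0.0519). CBX5 (ENSG00000094916), the heterochromatin protein HP1 alpha, was at 4.37, 5.04 and 6.64 units in parental and 10.4, 12.5 and 12.1 units in sphere cells. It was higher in every sphere library, 2.17-fold by group means, and was the only riser of the 54 genes whose call held in all 19 alternatives (log2 fold change 1.0, limma adjusted p = 0.00233). NCAPD2, a subunit of condensin I, rose from 72.0 ± 5.09 to 88.6 ± 5.35 units (limma adjusted p = 0.0148), and its call ended with the authors' scaling undone (0.422) and with equal totals outside mitochondrially encoded genes (0.277). SMC4, HMGB2 and ANP32E did not pass the test.

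At the nuclear envelope 1 of 3 genes fell (33.3%, against 22.9% of all tested genes). RANGAP1 (ENSG00000100401), which drives the Ran cycle of nuclear transport and also sits at kinetochores, had 148, 139 and 154 units in parental and 95.1, 97.6 and 94.8 units in sphere cells. The groups were far apart relative to their spread, with a log2 fold change of -0.61 (limma adjusted p = 0.000212). LBR, the lamin B receptor, was at 51.9 ± 0.886 and 52.4 ± 1.29 units, with a 95% interval of -0.08 to 0.11 for its log2 fold change. TMPO, which encodes lamina-associated LAP2 proteins, was at 81.2 ± 4.38 units in parental and 89.0 ± 3.35 units in sphere cells and was not called. It was called with array weights, without parental replicate 3 and with the length trend removed.

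Partners of 1 complex were compared as ratios within a library, which no scaling between libraries can change. The 7 pairs were chosen after values were seen. The ratio of AURKA to its activator TPX2 was 1.94, 2.01 and 1.86 in parental and 1.03, 0.981 and 1.03 in sphere libraries. This is a change in the ratio of RNA units, and the amounts of the 2 proteins were not measured. CENPA to HJURP stood at 1.69, 1.85 and 2.10 in parental and 1.06, 1.19 and 1.09 in sphere libraries. SMC4 to SMC2, the ATPase pair of condensin, was at 2.39, 2.11 and 2.37 against 1.18, 1.37 and 1.28, with SMC2 rising from 29.4 ± 5.20 to 43.5 ± 5.95 units (limma adjusted p = 0.0238). These 3 pairs had no overlap between groups and log2 ratio differences of -0.93, -0.75 and -0.85. The ratios of NDC80 to NUF2, BIRC5 to AURKB and CCNB1 to CDK1 also did not overlap, with smaller log2 ratio differences of -0.37, -0.34 and -0.32. That of KIF23 to RACGAP1, its partner in the central spindle, overlapped, with a difference of -0.26. A two-sided exact permutation test gave p = 0.1 for each of the 6 pairs without overlap, the smallest that 3 against 3 libraries allow, and 0.117 after Benjamini-Hochberg adjustment over the 7 pairs.

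**Figure D4:**
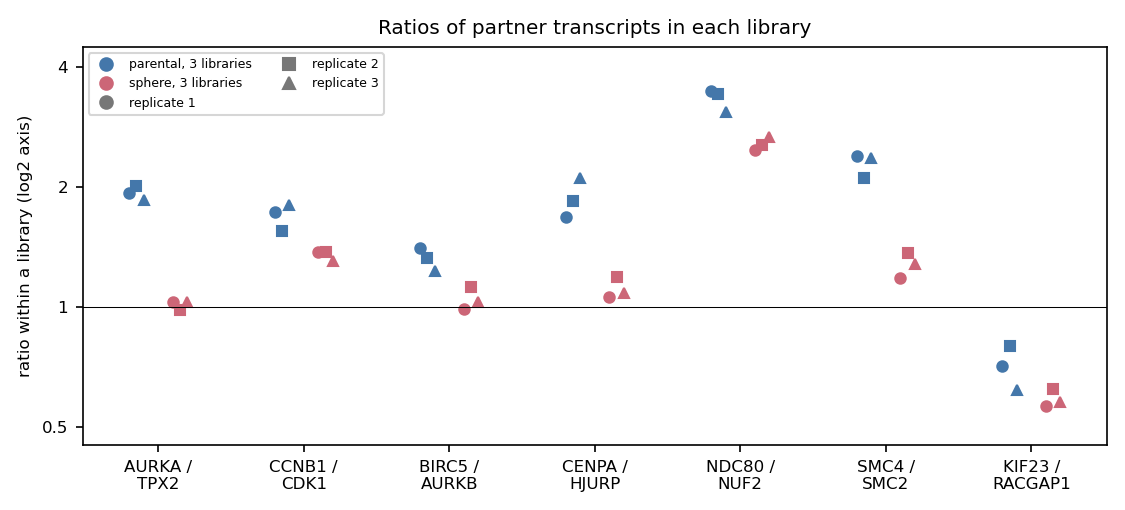
Ratio of the units of 2 partner genes within each library, on a log2 axis, for 7 pairs, with parental libraries in blue, sphere libraries in red and a symbol for each replicate. AURKA to TPX2 moves from near 2 in parental libraries to near 1 in sphere libraries, and KIF23 to RACGAP1 is the pair whose groups overlap.

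Other mitosis genes also fell more often than they rose. Of 50 other mitosis genes, 20 fell and 3 rose (40% and 6%, against 22.9% and 25.8% of all tested genes). Their median log2 fold change was -0.20. Over the alternatives with at least 2 libraries a group 14 to 21 fell and 0 to 8 rose, the most without parental replicate 3, and in the fit with 1 parental library 12 fell and 1 rose. PIMREG, a regulator of the metaphase to anaphase step, fell from 47.8 ± 2.82 to 21.5 ± 1.28 units, SKA1, a kinetochore protein, from 17.6 ± 0.913 to 8.13 ± 0.998 units, DIAPH3, a formin, from 20.8 ± 0.865 to 11.6 ± 0.417 units, and KIF4A, a chromosome-bound motor, from 44.0 ± 3.19 to 26.0 ± 1.11 units. CCNA2, cyclin A2, was at 34.4, 34.3 and 50.3 units in parental and 39.3, 39.7 and 39.3 units in sphere cells, and was not called. It was called without parental replicate 3, toward higher values (log2 fold change 0.19, limma adjusted p = 0.00881).

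Subunits and regulators of the anaphase-promoting complex were mixed, with 6 of 17 falling and 3 rising (35.3% and 17.6%, against 22.9% and 25.8% of all tested genes). UBE2S, which extends the ubiquitin chains that this complex starts, fell from 316 ± 16.4 to 144 ± 6.88 units (limma adjusted p = 4.75e-05), a larger fall than that of its partner enzyme UBE2C, at log2 fold changes of -1.13 and -0.47, a difference not itself tested. The subunits ANAPC13 and CDC27 fell by 0.29 and 0.22 on the log2 scale and ANAPC16 rose by 0.42, a call that ended with the scaling undone (limma adjusted p = 0.0695). Over the alternatives with at least 2 libraries a group 3 to 7 of the 17 fell and 0 to 4 rose, and in the fit with 1 parental library 2 fell and 1 rose. Of 10 genes of cohesin and its regulators 2 fell and 1 rose (20% and 10%), where 22.9% of all tested genes fell and 25.8% rose. The share of falls was thus near that of the whole table. Over the alternatives with at least 2 libraries a group 1 to 3 of the 10 fell and 0 to 2 rose. STAG1, a cohesin subunit, had a log2 fold change of -0.58, and WAPL and PDS5B, which release and stabilise cohesin, had -0.24 and 0.32, and these 3 calls each ended in at least 1 alternative, that of STAG1 in the fit with 1 parental library alone. CDCA5, which protects cohesin and is also named sororin, was at 113 ± 15.4 units in parental and 91.7 ± 3.8 units in sphere cells and was not called (limma adjusted p = 0.0516), but was in 7 of 19 alternatives.

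Of 19 transcription regulators of the cell cycle, 7 fell and 2 rose, where 22.9% of all tested genes fell and 25.8% rose. The list as a whole was not shifted down, with a median log2 fold change of 0.02, against 0.04 for all tested genes. Log2 fold changes were negative in 9 of the 19 genes and positive in 10. FOXM1 (ENSG00000111206), an activator of G2 and mitosis genes, was at 38.1, 38.3 and 43.5 units in parental and 22.8, 28.3 and 26.2 units in sphere cells. It was lower in every sphere library, with a log2 fold change of -0.62 (limma adjusted p = 0.00282). MYBL2, which encodes B-MYB, stood at 54.4 ± 5.41 units in parental and 62.0 ± 0.473 units in sphere cells and was not called, but was called higher in 3 of 19 alternatives. E2F7, a repressor of E2F targets, fell from 24.9 ± 1.42 to 9.50 ± 0.511 units, the largest fall of this list on the log2 scale at -1.30. RBL2, the pocket protein p130 of the repressive DREAM complex, rose from 26.1 ± 2.19 to 52.1 ± 2.23 units (limma adjusted p = 0.000177) and RBBP4, a MuvB subunit, from 19.8 ± 0.875 to 32.7 ± 0.775 units (0.000141). LIN37, another MuvB subunit, fell from 7.23 ± 0.288 to 3.52 ± 0.469 units. The MuvB subunits LIN52 and LIN54 also fell, with log2 fold changes of -0.43 and -0.44 (limma adjusted p = 0.0018 and 0.00236). LIN9 was not called. Over all alternatives 6 to 8 genes of this list fell and 2 to 6 rose, the most without parental replicate 3.

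Of 11 genes that gate the entry into mitosis, 3 rose and 3 fell (27.3% each), shares near those of all tested genes, 25.8% and 22.9%. GADD45A, a stress-induced inhibitor of CDK1, fell from 194 ± 4.06 to 80.0 ± 4.69 units (limma adjusted p = 2.39e-05), and CDKN1A, the CDK inhibitor p21, from 122 ± 9.01 to 69.3 ± 2.26 units (limma adjusted p = 0.000212). CHEK2, a checkpoint kinase, rose from 22.0 ± 1.41 to 33.9 ± 2.51 units. CDC25B, another phosphatase that activates CDK1, rose from 115 ± 7.91 to 142 ± 1.87 units (limma adjusted p = 0.00591), unlike CDC25C. SFN, which encodes 14-3-3 sigma, rose by a log2 value of 0.51 as deposited (limma adjusted p = 0.0017), a call that ended under each of 3 other scalings. With the scaling undone 1 gene of this list rose.

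Of 43 S-phase genes 13 rose (30.2%) and 4 fell (9.30%), where 25.8% of all tested genes rose and 22.9% fell, so the share of rises was near that of the whole table. Their median log2 fold change was 0.06, against 0.04 for all tested genes, and their calls stand against 27 falls and 3 rises among the 54 division genes. CDCA7 rose from 19.5 ± 1.98 to 40.2 ± 1.54 units, the uracil glycosylase gene UNG from 44.4 ± 4.25 to 80.2 ± 2.19 units, and PRIM1, a primase subunit, from 20.7 ± 0.558 to 34.1 ± 1.08 units. CDC6, which licenses replication origins, fell from 64.5 ± 4.94 to 32.4 ± 1.70 units. With the authors' scaling undone 7 S-phase genes rose and 4 fell, the median being -0.09. The median was also negative after quantile normalization (-0.04) and with equal totals outside mitochondrially encoded genes (-0.04). Other alternatives raised it, most of all the fit with 1 parental library, where the median was 0.27. Without parental replicate 3, 18 S-phase genes rose and 2 fell, with a median of 0.11, and with array weights 15 rose and 4 fell, with a median of 0.10. The difference between the lists was described, not tested.

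**Figure D5:**
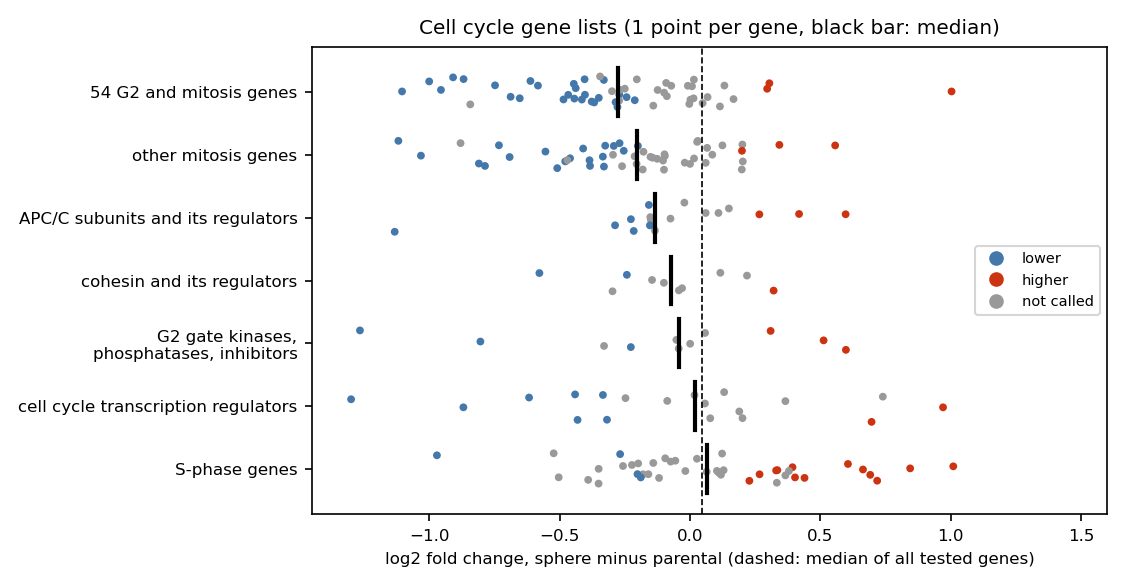
Log2 fold change, sphere minus parental, of every gene in 7 cell cycle lists, with the median of each list as a black bar and that of all tested genes as a dashed line. The division genes and the other mitosis genes lie mostly to the left, at medians of -0.27 and -0.20, and S-phase genes have a median of 0.06.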

How the data were processed

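RNA from SCC4 cells was read as single ends of 50 bases in 6 libraries, per the labels' protocols. HISAT and Bowtie2 (versions not given) and a mouse build, GRCm38.p6, are listed in the submitters' processing notes, yet all identifiers are human. Sources used here do not give the quantifier or the annotation, so coordinates are printed for RefSeq promoters only. The deposited values are named TPM by the file, but column totals differ, so they are treated as a signal that the authors rescaled between libraries in an unstated way. Reads of near-identical copies, such as tubulin paralogs and pseudogenes, which a gene name table lists for 20 of the 54 genes, may be shared.

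The 15034 genes with 1 unit or more in 3 or more libraries were fitted as log2(value + 1) with limma 3.58.1 in R 4.3.3, with 2 groups, a mean trend in the variance, two-sided tests and Benjamini-Hochberg adjustment over all of them. The procedure was checked on simulated data. Fold changes of low genes are understated by the pseudocount. Errors after ± are SDs over 3 libraries. The step of the low values, used to undo the authors' scaling, was found per library. Lengths are those of the longest GENCODE 29 protein-coding transcript, matched by identifier. All members were described. Named with values are the called members whose log2 fold change was 0.5 or more in size, the lowest and highest of each role and 7 set genes, the other members being given more briefly, and from other lists the 4 genes of smallest p with FOXM1, MYBL2 and CCNA2. CDC25B, LIN9, LIN52 and LIN54 were named in addition, after their values were seen. The members and lists were chosen with earlier results of these data known. Alternatives covered pseudocounts, filters, scalings, variance models, a replicate block and left-out libraries. Removal of the length trend and the partner ratios were added after the values were seen. A planned comparison of member proteins was not made.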

Additional observations from a re-analysis of the deposited data

How the results depend on the processing

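Of the 27 genes that fell, 19 kept their call in all 19 alternatives, as did 1 of the 3 that rose, CBX5. Over the alternatives that kept the threshold the falls numbered 24 to 29 with at least 2 libraries a group, and 21 in the fit with 1 parental library. Rises among the 54 genes numbered 1 with the authors' scaling undone, 1 with equal totals outside mitochondrially encoded genes and 1 at an adjusted p of 0.01. Over all tested genes the rises numbered 2281 with the scaling undone and 2419 with those equal totals, against 3875 as deposited, where rises were 53.0% of all calls against 37.7% and 44.0%. Undoing the scaling moved the median of all genes by -0.15 on the log2 scale and that of the 54 genes from -0.27 to -0.43. The 54 thus lay 0.32 below all genes as deposited and 0.33 below them with the scaling undone. The gap was smaller, with a difference in medians of -0.25, among genes of at least 5 units on average and after quantile normalization. Leaving out 1 library at a time gave 25 to 29 falls and 2 to 3 rises among the 54 genes, and 2854 to 3307 falls and 3286 to 4003 rises over the table. Same-numbered libraries did not deviate together in every pair (r = 0.33, 0.12 and -0.27 for numbers 1 to 3), so the numbers were not taken as pairs, and a fit with the replicate block called 24 falls and 2 rises among the 54. Log2 ratio differences of the 7 partner pairs kept their sign in every left-out fit. Read depth is unknown, and 3 libraries a group limit what small differences can be called.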

Other observations

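Several genes of DNA replication and division had their highest value by far in parental replicate 2, a library that also held 1910 units of erythroid markers. These were chosen after their values were seen. SPC24, a kinetochore subunit, was at 17.8, 119 and 31.9 units in parental and 21.7, 23.8 and 20.2 units in sphere cells, replicates 1 to 3 in order. PCNA, the sliding clamp of DNA polymerase, was at 340, 950 and 572 units in parental and 406, 402 and 381 units in sphere cells, so that parental replicate 3 was raised as well. GMNN, the licensing inhibitor geminin, was at 83.6, 195 and 107 units and 92.0, 99.8 and 90.8 units in the same order. KIF11 and CDC20 shared this shape, while NEK2, AURKA and NDC80 did not. The part of the erythroid transcripts in it was not tested.

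Parental replicate 3 was the highest of its group for 33 of the 54 genes, parental replicate 2 for 17 and parental replicate 1 for 4. Among sphere libraries the highest values were spread over replicates 1 to 3, at 19, 13 and 22 genes. Of the 5 longest transcripts, MKI67, CENPF and CENPE were highest in parental replicate 2 and sphere replicate 3, CBX5 in parental replicate 3 and sphere replicate 2, and CKAP5 in parental replicate 3 and sphere replicate 3.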
